A study of Mus musculus with 6 samples.

Results

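The chemokines measured in these livers were Cxcl1, Cxcl9, Cxcl10, Cxcl12, Cxcl13, Cxcl16, Ccl2, Ccl6, Ccl9 and Ccl24. They are the 10 rows with these gene names among the 54532 genes of the deposited FPKM table, which holds 40 chemokine genes on assembled chromosomes. Polyadenylated RNA from whole liver was sequenced from 3 control mice, of genotype Notch1fl/fl (Notch1 flanked by loxP sites), and from 3 mice with a hepatocyte Notch1 knockout (hepatocyte Notch1 KO). Neither group received a treatment. The sources used here do not state the Cre driver, sex or age. The study asked whether Notch1 governs how the liver makes thrombopoietin. Levels are in FPKM, which divides the fragments of a gene by its length in kilobases and by a factor for library size, and each value below is FPKM unless marked as reads or log2.

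Chemokines are small secreted proteins that bind G protein-coupled receptors on leukocytes and guide their movement along a gradient. They are named after the spacing of their first cysteines, CC or CXC. Some are made steadily and set where immune cells reside, while others are induced by interferon or by NF-κB, the transcription factor of inflammatory signalling. In liver they come from hepatocytes, sinusoidal endothelium, stellate cells and Kupffer cells, the resident macrophages, so a whole-liver value adds all of these. In such bulk samples, fewer cells of a type and less RNA per cell cannot be told apart.

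Reads recovered in genes numbered 15612924 to 17511961 per library. Notch1 was at 0.618, 0.965 and 0.854 in controls 1 to 3 and at 0.301, 0.540 and 0.292 in knockouts 1 to 3, so the groups did not overlap (limma adjusted p = 0.257). A whole-liver Notch1 value includes cells in which the gene was not deleted. Knockout 2 stood apart from the other knockouts in acute phase genes, a set that hepatocytes switch on during inflammation. The summed level of 22 such genes was 8689 in knockout 2, against 24455 and 23479 in knockouts 1 and 3 and 10578 to 12385 in the controls. Values that rest on that liver are given below with and without it.

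No chemokine of the 10 differed between the groups at an adjusted p under 0.05 in limma's test of log2(FPKM + 1), fitted over 12022 genes with Benjamini-Hochberg adjustment. The share of all tested genes past that threshold was 0.025%, or 3 genes, and no gene passed in a fit blocked on replicate number. At an unadjusted p under 0.05 there was 1 of the 10 (Cxcl10), where 13.9% of all tested genes passed. All 10 passed the filter of a mean of 0.5. The groups did not overlap for 3 of them: Cxcl9 and Ccl9 were higher in every knockout than in any control, and Cxcl10 was lower. Over all tested genes, 9.2% had all knockouts above all controls and 10.6% had all knockouts below, 19.8% together, so the members' count is to be read against that share. The median log2 fold change was 0.03 over the 10 chemokines and -0.01 over all tested genes, with 6 of the 10 higher and 4 lower, where 48.1% of all tested genes were higher. When libraries were scaled to their total reads, the median of all genes was 0.10, and Cxcl1 and Cxcl12 changed sign. The groups then overlapped for Cxcl10.

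**Figure D1:**
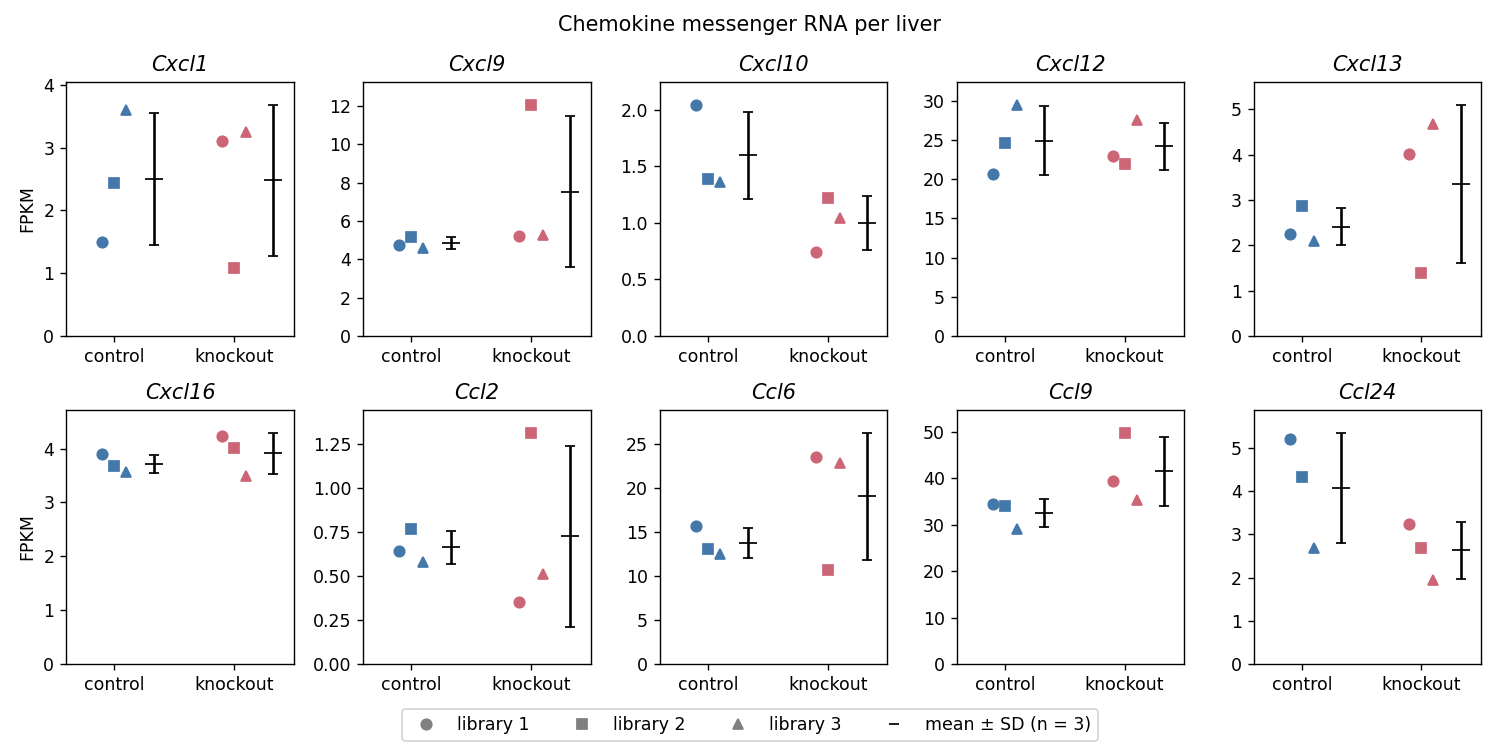
FPKM of each of the 10 chemokines (vertical axes, linear from 0) in 3 control and 3 knockout livers, with the symbol giving the library number and the bar the mean ± SD over 3 livers. Knockout 2 is the highest library for Cxcl9, Ccl2 and Ccl9 and the lowest for Cxcl1, Cxcl13 and Ccl6, while all 3 knockouts lie below the controls for Cxcl10.

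The levels of the 10 genes spanned from Ccl9, with a mean of 37.0 over the 6 livers, to Ccl2, with 0.696. Ccl9, Cxcl12 (24.5) and Ccl6 (16.4) held 77.6% to 81.0% of the summed level of the 10 in each liver. Cxcl9 (6.18), Cxcl16 (3.81), Ccl24 (3.35), Cxcl13 (2.88), Cxcl1 (2.49) and Cxcl10 (1.30) followed in that order. Each gene's range over the livers overlapped that of the next in this order, except for Cxcl9 and Cxcl16. Cxcl9 was above Cxcl16 in all 6 livers, while Ccl24 and Cxcl13 changed places in 2 of them. The summed level of the 10 was 91.0, 92.2 and 89.4 in controls 1 to 3 and 106.8, 106.2 and 106.0 in knockouts 1 to 3. This evenness did not hold gene by gene, since only Ccl9 and Cxcl9 had all knockouts above all controls. In knockout 2 Ccl9 (49.8) and Cxcl9 (12.1) were at their highest of the 6 livers and Ccl6 (10.7) at its lowest. The sum was examined after the values were seen and has no test.

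Cxcl9 and Cxcl10 are ligands of Cxcr3, the receptor of activated T cells and natural killer cells, and both are classical targets of interferon gamma. The genes lie side by side on the minus strand of chromosome 5 (GRCm38). Cxcl9 (ENSMUSG00000029417) spans 92321347 to 92328079 with 4 exons, and Cxcl10 (ENSMUSG00000034855) spans 92346638 to 92348889, with 18.6 kb and no annotated gene between them. Cxcl10 lies inside Art3, a gene on the opposite strand, and shares 133 of its 2252 exon bases with it. The sources used here do not say whether counting used strand. Art3 was at 0.339 to 0.520 in controls and 0.425 to 0.672 in knockouts, with overlapping values.

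The 250 bases before the start sites of these neighbours are shown because the pair lay on opposite sides of the controls in FPKM. Cxcl1, the third chemokine with a match, is shown as well. They are RefSeq sequences (build GRCm38.p6), 5′ to 3′ on the gene's strand, and 7 of the 10 chemokines had an entry. Capitals mark matches on either strand to GGGANTTCC or GGGAANTTC (forms of the κB motif bound by NF-κB) and to GAAANNGAA (the core of the interferon-stimulated response element).
Cxcl9, chr5:92328080-92328329, minus strand: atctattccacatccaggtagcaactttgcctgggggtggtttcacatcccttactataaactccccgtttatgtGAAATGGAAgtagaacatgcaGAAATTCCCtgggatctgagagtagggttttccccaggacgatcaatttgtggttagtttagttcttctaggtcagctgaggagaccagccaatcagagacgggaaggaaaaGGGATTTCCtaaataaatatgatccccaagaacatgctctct
Cxcl10, chr5:92348890-92349139, minus strand: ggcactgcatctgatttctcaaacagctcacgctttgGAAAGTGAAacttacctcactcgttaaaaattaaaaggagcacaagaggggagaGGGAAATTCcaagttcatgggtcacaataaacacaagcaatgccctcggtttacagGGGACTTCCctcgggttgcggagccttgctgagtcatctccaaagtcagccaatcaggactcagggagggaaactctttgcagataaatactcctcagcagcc
Cxcl1, chr5:90890995-90891244, plus strand: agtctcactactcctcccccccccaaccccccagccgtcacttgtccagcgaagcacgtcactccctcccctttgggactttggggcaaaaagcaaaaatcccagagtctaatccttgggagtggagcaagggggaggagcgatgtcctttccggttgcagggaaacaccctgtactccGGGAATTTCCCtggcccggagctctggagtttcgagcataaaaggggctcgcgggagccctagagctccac
The first κB form was found in Cxcl9 and Cxcl10 and in 1.43% of 32851 windows of the same length, and the second in Cxcl1, Cxcl9 and Cxcl10 and in 0.907%. In Cxcl1 the matches on opposite strands overlap. The response element core was found in Cxcl9 and Cxcl10, and in 7.13% of all windows. TTCNNNGAA, the letters of the interferon gamma activated site, was found in 0 of the 7 and in 7.02% of windows. A match describes letters in this window only.

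Cxcl9 was at 4.75, 5.18 and 4.57 in controls 1 to 3 and at 5.23, 12.1 and 5.28 in knockouts 1 to 3. All knockouts lay above all controls, but knockouts 1 and 3 only narrowly, and the distance between the means came mostly from knockout 2, which had 729 reads against 215 to 272 in the other livers. The means were 4.83 ± 0.311 and 7.52 ± 3.93 (SD, n = 3), with a log2 fold change of 0.46 (95% interval -0.21 to 1.12, limma adjusted p = 0.519). Without knockout 2 the log2 fold change was 0.10.

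Cxcl10 showed the opposite order. Its level was 2.04, 1.39 and 1.36 in the control livers, against 0.742, 1.22 and 1.04 in the knockout livers, from 50 to 69 and 25 to 55 reads. In FPKM every knockout lay below every control, with knockout 2 the nearest to them. This separation depended on the scaling. Knockout 2 had 55 of 17511961 reads, and controls 2 and 3 had 50 of 16795674 and 51 of 16809352. Per total reads, knockout 2 thus lay above controls 2 and 3, and the groups overlapped. The control mean of 1.60 ± 0.386 was 1.60 times the knockout mean of 0.9998 ± 0.240, and the log2 fold change was -0.37 (95% interval -0.72 to -0.03, limma unadjusted p = 0.0373, adjusted p = 0.327). Over the alternatives the adjusted p was 0.265 to 0.603.

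The ratio of Cxcl9 to Cxcl10 within a liver, computed after the values were seen, was 2.33, 3.73 and 3.35 in controls and 7.05, 9.90 and 5.08 in knockouts. The lowest knockout ratio was above the highest control ratio, which follows from the 2 genes' own values and is no further observation. No test is given, and the smallest p that an exact permutation of 3 against 3 livers allows is 0.10. The sum of both genes was 5.93 to 6.79 in controls, 5.97 and 6.31 in knockouts 1 and 3, and 13.3 in knockout 2.

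Ccl6 and Ccl9 are CC chemokines of rodents that bind Ccr1 and are made by macrophages and other myeloid cells. Both lie on the minus strand of chromosome 11, Ccl9 (ENSMUSG00000019122) at 83572919 to 83578636 and Ccl6 (ENSMUSG00000018927) at 83587882 to 83593087, with 9.24 kb and no annotated gene between them. Each has 4 exons in its coding transcript. Of the 50-base stretches in Ccl9 transcripts, 1.97% also occur in transcripts of other genes, and 0 of those in Ccl6 transcripts do, so the pair shares none. The windows before their starts are shown as those of a neighbouring pair whose levels differed in opposite directions from the controls in knockout 2. The capitals mark the best local alignment between them, with 16 identical bases of 17.
Ccl6, chr11:83593088-83593337, minus strand: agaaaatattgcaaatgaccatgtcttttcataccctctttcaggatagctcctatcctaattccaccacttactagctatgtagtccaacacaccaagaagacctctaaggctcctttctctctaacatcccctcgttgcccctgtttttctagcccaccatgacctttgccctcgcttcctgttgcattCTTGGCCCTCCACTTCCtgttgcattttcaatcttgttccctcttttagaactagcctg
Ccl9, chr11:83578637-83578886, minus strand: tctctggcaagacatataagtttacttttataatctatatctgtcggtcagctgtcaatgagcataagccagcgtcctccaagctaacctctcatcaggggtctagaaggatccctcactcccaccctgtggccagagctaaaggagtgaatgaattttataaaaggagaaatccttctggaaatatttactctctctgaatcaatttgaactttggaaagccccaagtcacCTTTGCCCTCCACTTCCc
The aligned stretch lies 59 to 43 bases before the Ccl6 start and 18 to 2 bases before the Ccl9 start. Neither window held a match to the motifs above. The best alignment of Cxcl9 with Cxcl10 had the same score (29), with 23 identical of 28 positions. Other pairs of chemokine windows gave 12 identical of 13 (Cxcl13 with Cxcl9) and 10 of 10 (Ccl9 with Cxcl10), at lower scores. The alignment of Ccl6 with Ccl9 has no test.

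For Ccl9 the control livers gave 34.4, 34.0 and 29.0 and the knockout livers 39.4, 49.8 and 35.4, from 1467 to 3039 reads. All 3 knockouts were above all 3 controls, with knockout 2 the highest and knockout 3 close to control 1. The means were 32.5 ± 3.02 and 41.5 ± 7.42, a ratio of 1.28, with a log2 fold change of 0.34 (95% interval -0.01 to 0.68, limma adjusted p = 0.371). Without knockout 2 it was 0.20.

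Ccl6 was at 15.6, 13.04 and 12.5 in controls 1 to 3 and at 23.5, 10.7 and 22.9 in knockouts 1 to 3, from 372 to 702 reads. Knockouts 1 and 3 were above every control and knockout 2 was below every control. The log2 fold change was 0.37 (95% interval -0.30 to 1.05, limma adjusted p = 0.605). Without knockout 2 it was 0.72 (limma adjusted p = 0.114), the lowest adjusted p of any of the 10 genes under any alternative. Leaving out knockout 1 or knockout 3 instead lowered it, to 0.19 and 0.21.

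In knockout 2 the level of Ccl9 was 4.64 times that of Ccl6, against 1.68 and 1.55 in knockouts 1 and 3 and 2.20 to 2.60 in controls. Their sum differed less among knockouts than either gene: 62.9, 60.5 and 58.3, against 50.1, 47.0 and 41.5 in controls. The ratio and the sum were computed after the values were seen and have no test.

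**Figure D2:**
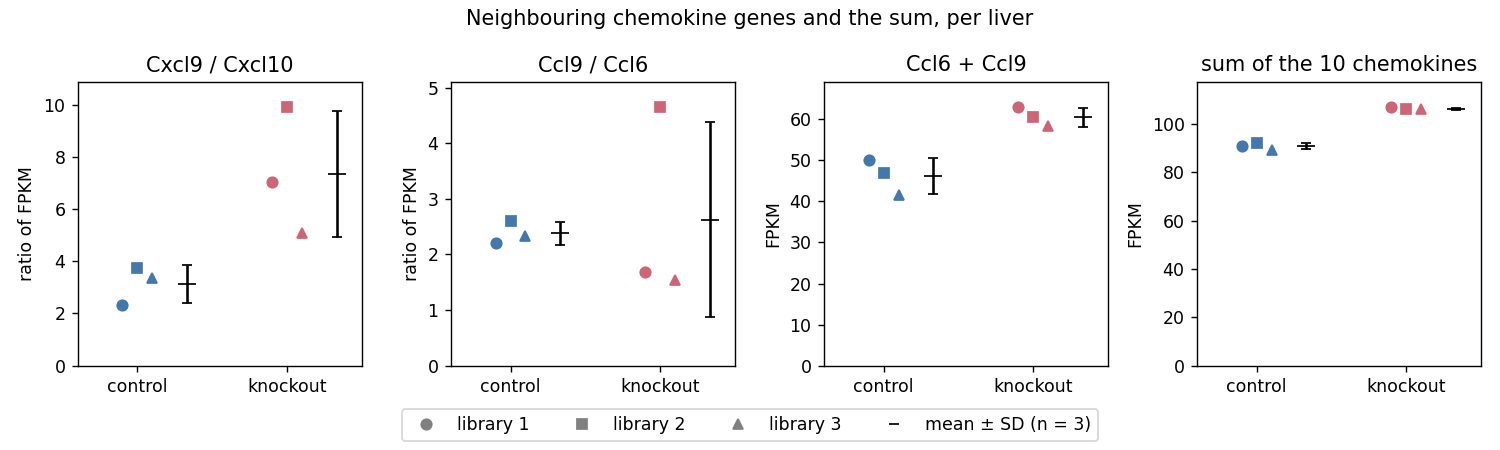
Ratio or sum of FPKM in each liver (vertical axes, linear from 0) for the neighbours Cxcl9 and Cxcl10, for the neighbours Ccl9 and Ccl6, and for all 10 chemokines, with symbols for the library number and bars for mean ± SD over 3 livers. The Cxcl9 to Cxcl10 ratio is 2.33 to 3.73 in controls and 5.08 to 9.90 in knockouts, and the sum of the 10 is 89.4 to 92.2 against 106.0 to 106.8. Knockout 2 reaches that sum with the highest Ccl9 and the lowest Ccl6 of all livers.

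Cxcl1, which attracts neutrophils through Cxcr2, is encoded on the plus strand of chromosome 5, at 90891241 to 90893115 (ENSMUSG00000029380). Its level was 1.49, 2.43 and 3.59 in the control livers, against 3.10, 1.09 and 3.24 in the knockout livers, from 41 to 112 reads. The groups overlapped, with control 3 the highest liver and knockout 2 the lowest, followed by control 1. The log2 difference was -0.04 (95% interval -0.81 to 0.74, limma adjusted p = 0.974), and 0.30 without knockout 2. Cxcl2, a second Cxcr2 ligand, was low, at 0 to 0.640 in controls and 0.0482 to 0.198 in knockouts. Neutrophil markers, which include S100a8 and S100a9, summed to 6.73 to 17.1 in controls and to 21.3, 11.4 and 37.0 in knockouts 1 to 3. Of the 8 markers 4 were tested, 3 with higher and 1 with lower means, and none of the 8 was at 0 in all livers. Their part in the Cxcl1 values was not tested.

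Ccl2, which recruits monocytes through Ccr2, is encoded on the plus strand of chromosome 11, at 82035571 to 82037453 (ENSMUSG00000035385). The control livers gave 0.644, 0.768 and 0.582 and the knockout livers 0.353, 1.31 and 0.514. Knockout 2, with 30 reads, was above all controls, and knockouts 1 and 3, with 6 and 10 reads, were below them. The fitted log2 change was 0.01 (95% interval -0.47 to 0.50, limma adjusted p = 0.984). Without knockout 2 it was -0.22. With 6 to 30 reads per liver, counting error limits the precision of these values. Ccl7, also a Ccr2 ligand, measured 0.166 to 0.468 in controls and 0.167, 0.685 and 0.511 in knockouts.

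Cxcl12, the ligand of Cxcr4 that retains blood progenitors and lymphocytes in tissues, is made steadily by stromal and endothelial cells. It is encoded on the plus strand of chromosome 6, at 117168535 to 117181367 (ENSMUSG00000061353). It was at 20.7, 24.5 and 29.5 in controls 1 to 3 and at 23.0, 21.9 and 27.6 in knockouts 1 to 3, from 2537 to 4003 reads. All 3 knockouts fell within the control range. The log2 fold change was -0.03 with a 95% interval of -0.39 to 0.33 (adjusted p = 0.949, limma).

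Cxcl16 is a membrane-bound chemokine that Adam10 and Adam17 can release and that binds Cxcr6 on T cells and natural killer T cells. Its gene lies on the minus strand of chromosome 11, at 70453983 to 70459984 (ENSMUSG00000018920). Its level was 3.90, 3.68 and 3.57 in the control livers, against 4.23, 4.01 and 3.49 in the knockout livers, the narrowest range of the 10 genes relative to its level. The log2 difference was 0.06 (95% interval -0.17 to 0.28, limma adjusted p = 0.845). Zmynd15, on the opposite strand, shares 552 of the 3021 exon bases of Cxcl16 and measured 0.249 to 0.622 over the livers. Adam10 measured 5.14 to 5.38 in controls and 5.63 to 5.98 in knockouts (adjusted p = 0.520, limma), with no overlap, and Adam17 2.36 to 2.66 and 2.27 to 2.90.

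Cxcl13, which draws B cells through Cxcr5, is encoded on the plus strand of chromosome 5, at 95956951 to 95961068 (ENSMUSG00000023078). The control livers gave 2.26, 2.88 and 2.09 and the knockout livers 4.01, 1.39 and 4.68, from 32 to 92 reads. As with Ccl6, knockouts 1 and 3 were above every control and knockout 2 was below every control. The fitted log2 change was 0.27 (95% interval -0.48 to 1.01, limma adjusted p = 0.765), and 0.65 without knockout 2 (adjusted p = 0.169). Leaving out knockout 1 or knockout 3 instead lowered it, to 0.12 and 0.03. Markers of B and plasma cells summed to 19.4 to 23.9 in controls and to 19.6, 16.6 and 20.0 in knockouts 1 to 3. Of these 8 markers 6 were tested, and all 6 had lower means; none was at 0 in all livers. In knockouts 1 and 3, where Cxcl13 was above the controls, the sum lay near the lower end of the control range. The part of B cells in the Cxcl13 values was not tested.

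Ccl24, or eotaxin-2, attracts eosinophils through Ccr3 and is encoded on the minus strand of chromosome 5, at 135569937 to 135573049 (ENSMUSG00000004814). It was at 5.20, 4.34 and 2.70 in controls 1 to 3 and at 3.25, 2.70 and 1.94 in knockouts 1 to 3, from 43 to 101 reads. The groups overlapped only through control 3, which lay just below knockout 2 and below knockout 1. Taken by replicate number, each knockout was lower than the control of the same number, though the labels give no pairing. The log2 fold change was -0.47 (95% interval -0.99 to 0.05, limma adjusted p = 0.400), and blocking on replicate number gave an adjusted p of 0.141. Of 12 Kupffer cell and macrophage markers, 6 had higher and 6 lower means. Clec4f measured 53.6 to 70.9 in controls and 40.6 to 64.2 in knockouts, and Vsig4 24.6 to 39.1 and 20.5 to 36.4. Marco measured 2.67 to 3.63 in controls and 3.51 to 5.86 in knockouts, and Timd4 3.05 to 4.60 and 3.79 to 5.17.

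**Figure D3:**
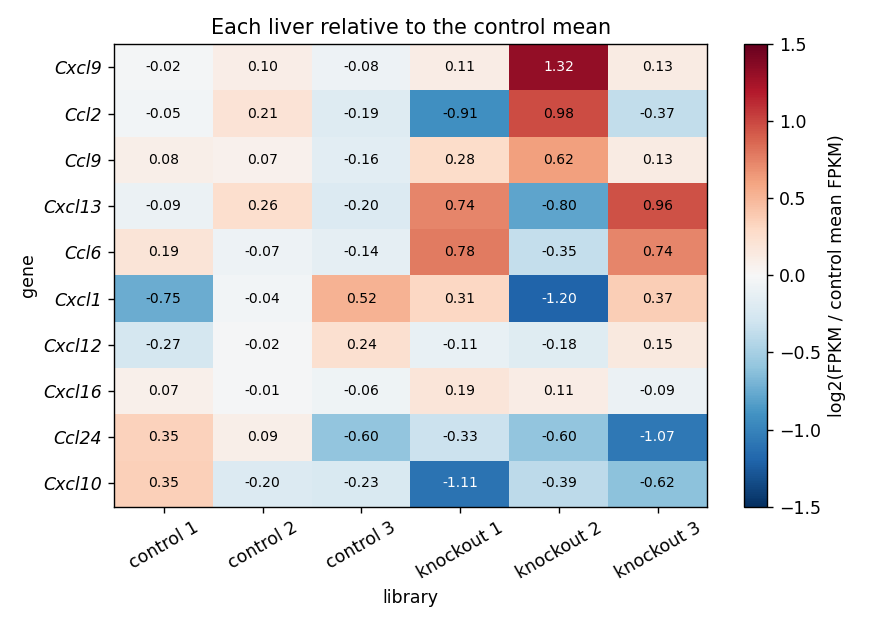
Log2 ratio of FPKM in each of the 6 livers (columns) to the control mean for each chemokine (rows), with the value printed in each cell and colour running from blue (lower) to red (higher). Knockout 2 reads 1.32 for Cxcl9 and 0.98 for Ccl2 but -0.80 for Cxcl13 and -1.20 for Cxcl1, while knockouts 1 and 3 read 0.74 and 0.96 for Cxcl13.

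**Figure D4:**
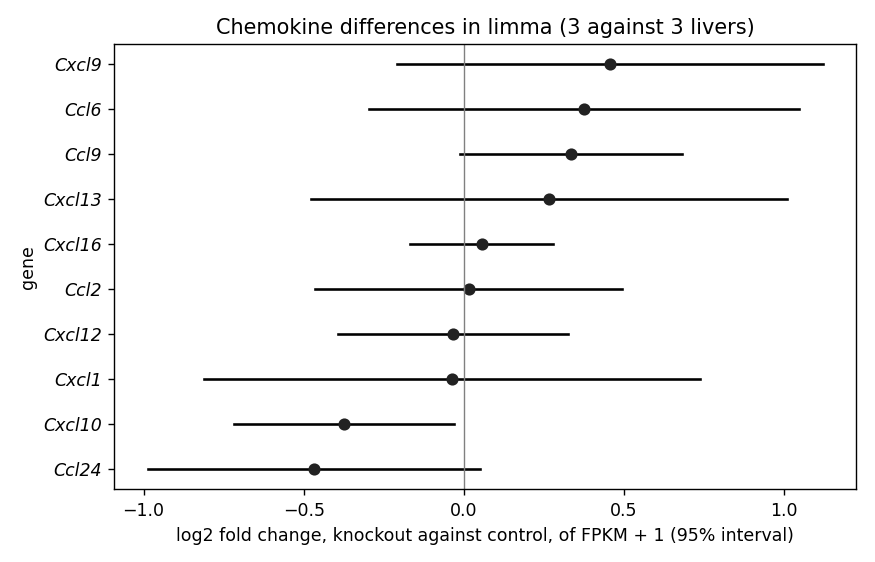
Log2 fold change of FPKM + 1, knockout against control, for the 10 chemokines (points) with 95% intervals from limma (lines). The interval of Cxcl10 (-0.72 to -0.03) alone leaves out 0, before adjustment over 12022 genes.

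Most receptors of these ligands were too low for the test. Of 19 typical chemokine receptors, 3 passed the filter, Cxcr4 and Cx3cr1 among them, and 3 (Cxcr1, Ccr6 and Ccr1l1) had 0 reads in all livers. None of the 3 tested passed the limma threshold, and 1 (Cx3cr1, the fractalkine receptor) did at an unadjusted p under 0.05, against shares of 0.025% and 13.9% over all genes. Cx3cr1 was at 0.0148, 0.457 and 0.588 in controls 1 to 3 and at 0.534, 1.16 and 1.27 in knockouts 1 to 3, with overlapping groups. Cxcr3, the receptor of Cxcl9 and Cxcl10, had 6 reads in each control and 1, 12 and 13 in knockouts 1 to 3. Ccr1, the receptor of Ccl6 and Ccl9, had 0 to 10 and 6 to 13 reads, and Cxcr2 had 2 to 10 and 7 to 11. Ccr2 was at 0.276, 0.480 and 0.418 in controls 1 to 3 and at 0.593, 0.450 and 0.753 in knockouts 1 to 3. Cxcr4 measured 0.221 to 0.732 and 0.296 to 0.690. Cxcr5 and Cxcr6 had at most 9 and 16 reads in any liver. Ccr3, the Ccl24 receptor, had 12, 22 and 10 reads in controls and 8, 4 and 7 in knockouts, too few for the test. Eosinophil markers were near the floor: none of 5 passed the filter, Epx had 0 reads in all livers, and their sum, which includes Ccr3 itself, was 0.359 to 0.549 in controls and 0.188 to 0.349 in knockouts. Without Ccr3 it was 0.114 to 0.314 and 0.0561 to 0.223.

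Atypical receptors bind chemokines without the usual G protein signal, and some of them remove chemokines from tissue. Ackr3, which takes up Cxcl12, was at 0.259, 0.578 and 1.44 in controls 1 to 3 and at 1.52, 2.10 and 2.48 in knockouts 1 to 3. All knockouts were above all controls, with control 3 close to knockout 1, and the log2 fold change was 0.83 (95% interval 0.24 to 1.42, limma unadjusted p = 0.0129, adjusted p = 0.233). Mesothelial and portal fibroblast markers were likewise higher in every knockout when summed, at 11.2, 23.5 and 73.1 in controls and 101.6, 171.4 and 138.9 in knockouts. Of these 10 markers 9 were tested, all 9 had higher means and 6 had all knockouts above all controls (9.2% over all genes), and none was at 0 in all livers. In limma 0 of the 9 passed the threshold, and 5 did without control 3 (Gpm6a, Krt19, Msln, Upk1b and Upk3b). In that fit 70 of 12024 genes of the whole table passed, 60 of them higher, against 3 in the main fit. Msln, a mesothelial surface protein, measured 2.02, 3.90 and 19.1 against 36.6, 60.7 and 41.8. Their part in the Ackr3 values was not tested. Ackr1 was at 0.806, 0.755 and 0.128 in controls 1 to 3 and at 1.09, 0.994 and 0.833 in knockouts 1 to 3. Its knockouts also lay above all controls, with knockout 3 close to control 1 (limma adjusted p = 0.454). Ackr2, which scavenges inflammatory CC chemokines, measured 1.08 to 1.42 and 1.12 to 1.15. Dpp4, a protease that trims and inactivates Cxcl10 and Cxcl12, measured 18.6 to 20.3 and 15.5 to 19.1, and Sdc4, a heparan sulfate carrier, 115 to 134 and 126 to 155. Of 15 atypical receptors and modifiers, 11 were tested, 7 with higher and 4 with lower means, and 0 passed the threshold.

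**Figure D5:**
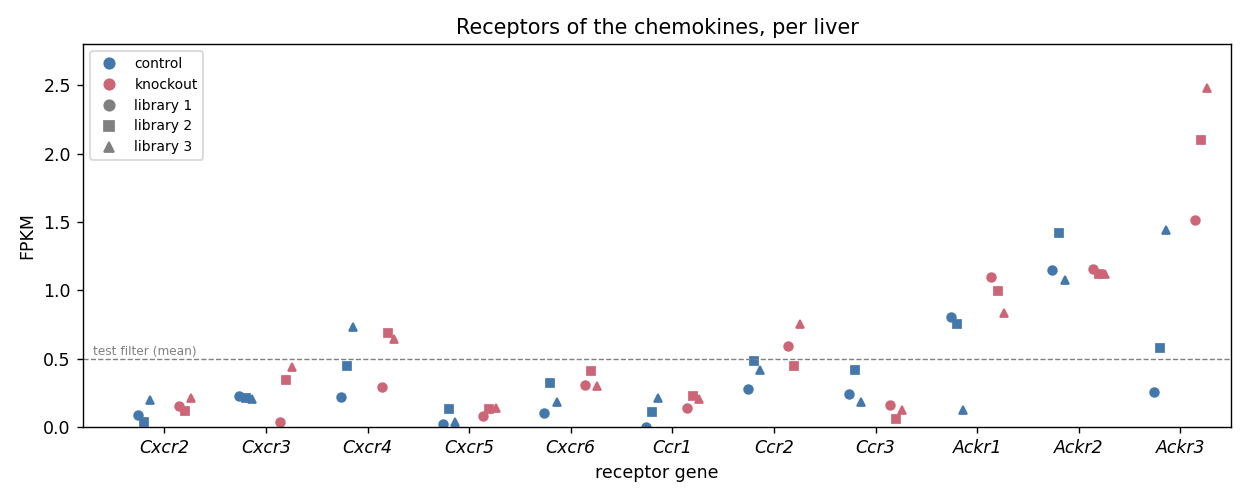
FPKM (vertical axis, linear from 0) of 11 receptor genes in 3 control and 3 knockout livers, with colour for the group and symbol for the library number, and a dashed line at the mean of 0.5 needed for the test. The 8 typical receptors drawn reach at most 0.753 in any liver (Ccr2, knockout 3), and Ackr3 runs from 0.259 to 2.48.

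Among 28 other chemokine genes, 9 were tested, 6 with higher and 3 with lower means, and 0 passed the limma threshold or an unadjusted p under 0.05. Another 5 (Cxcl15, Ccl1, Ccl19, Ccl20 and Ccl26) had 0 reads in all livers. Ccl5, a chemokine made by T cells and natural killer cells, was at 2.22, 2.86 and 2.32 in controls and 2.09, 1.87 and 1.89 in knockouts, with no overlap (adjusted p = 0.390 by limma). Cxcl14 measured 0.478 to 1.68 and 1.15 to 3.07, and Pf4, the platelet chemokine, 1.85 to 3.12 and 2.13 to 4.30. Ccl4 was highest in control 3, at 2.46, and otherwise 0.378 to 1.36.

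Genes that respond to interferon, the signal that induces Cxcl9 and Cxcl10, showed both directions. Of 25, 24 were tested, 7 with higher and 17 with lower means and a median log2 fold change of -0.12. In limma 0 passed the threshold, and 3 higher and 3 lower had an unadjusted p under 0.05 (13.9% over all genes in both directions). Gbp2, a guanylate-binding protein induced by interferon gamma, was at 2.44, 2.63 and 4.47 in controls and 6.88, 12.8 and 9.46 in knockouts. Its highest liver was knockout 2, as for Cxcl9. Psmb8, an immunoproteasome subunit, measured 6.27 to 7.28 and 7.87 to 9.28. Ifit3 (9.98 to 10.8 and 6.15 to 8.28) and Rsad2 (2.89 to 3.43 and 1.81 to 2.09), antiviral genes induced by type I interferon, lay below the controls in all knockouts, as Cxcl10 did. The adjusted p of these 4 genes ran from 0.114 to 0.280.

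Of 18 NF-κB feedback and target genes, 16 were tested, 13 with higher and 3 with lower means and a median log2 fold change of 0.11. In limma 0 passed, and 3 had an unadjusted p under 0.05, all of them higher (13.9% over all genes in both directions). Icam1, an endothelial adhesion molecule, was at 0.780, 1.75 and 1.59 in controls 1 to 3 and at 2.10, 2.21 and 2.24 in knockouts 1 to 3. Tnfaip2 measured 3.15 to 3.89 and 3.85 to 5.90, Irf1 3.00 to 3.49 and 3.35 to 4.81, and Zc3h12a 0.607 to 0.832 and 0.761 to 2.15. All 22 acute phase genes had higher means, with a median of 0.60, and 0 passed the threshold, while 3 had an unadjusted p under 0.05 (13.9% over all genes). Without knockout 2, 8 of the 22 passed, all higher (Apcs, Hp, Lbp, Lcn2, Orm2, Saa1, Saa2 and Saa3), the median was 1.03, and 30 genes of the whole table passed. Without knockout 1, 0 passed, 18 were higher and 4 lower, and the median was 0.27. Saa3 measured 0.947 to 1.61 and 3.90 to 6.24, and Il6ra 2.51 to 3.18 and 4.68 to 6.08. Saa1 and Saa2, near-identical genes whose reads can be split between them, were high in knockouts 1 and 3 and within the control range in knockout 2 (16.2 and 8.62).

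Kupffer cell and macrophage markers did not separate the groups. All 12 were tested, 6 with higher and 6 with lower means, none at 0, and their sum was 373, 389 and 314 in controls and 410, 300 and 339 in knockouts. It was thus lowest in knockout 2, where Ccl9 was highest and Ccl6 lowest. Monocyte markers, of which 2 of 7 were tested, summed to 107, 146 and 102 in controls and to 153, 141 and 149 in knockouts, with Lyz2 making up most of the sum. Markers of sinusoidal endothelium (9 of 9 tested, 2 higher and 7 lower) summed to 63.9 to 81.7 and 61.8 to 80.1, and those of stellate cells (9 of 9, 4 higher and 5 lower) to 107 to 119 and 90.7 to 127. T and natural killer cell markers (4 of 13 tested, 2 higher and 2 lower) summed to 5.97 to 7.98 and 6.09 to 6.62. Dendritic cell markers (1 of 8 tested) summed to 1.52 to 2.07 and 1.24 to 2.40. Bile duct markers (4 of 6 tested, all higher, 0 past the threshold) summed to 12.8 to 16.1 and 23.6 to 32.8. Without control 3, Krt7 and Krt19, the latter also a mesothelial marker above, passed, as did 70 genes of the whole table. Hepatocyte markers (10 of 10, 2 higher and 8 lower) summed to 54643 to 64644 and 40377 to 51937. None of these marker lists held a gene at 0 in all livers. The part of these cells in the chemokine values was not tested.

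Likeness of pattern was described by Pearson's r of log2(FPKM + 1) over the 6 livers, against the 162 other tested genes of all lists, for the 9 chemokines with a mean of at least 1. With 6 points in 2 groups, and with libraries and their scaling shared, these values describe the livers and carry no test. Ccl6 was most like Orm3 (r = 0.98) and Orm1 (0.97), and Cxcl13 most like Serpina3n and Orm3 (0.96 each), all acute phase genes with their lowest level in knockout 2. Orm1 measured 1167 to 1694 in controls and 3387, 674 and 2760 in knockouts 1 to 3. Ccl6 and Cxcl13 had the highest r of any chemokine pair (0.92). Cxcl9 and Ccl9 were most like each other (0.90) and Vcam1 (0.92 and 0.90), an endothelial adhesion molecule that measured 1.46 to 1.64 in controls and 1.79, 2.34 and 1.58 in knockouts. Knockout 2 was the highest liver for Cxcl9, Ccl9 and Vcam1. By rank (Spearman's rho), Cxcl9 with Vcam1 was lower, at 0.60, while Ccl9 was at 0.89 with Vcam1 and with Cxcl9. Cxcl12 was most like Nfkbia, the inhibitor that NF-κB induces (0.99), and Oasl2 (0.81), and Ccl24 most like the endothelial receptor gene Gpr182 (0.94) and Clec4f (0.86). Cxcl1 was most like Stat2 (0.85) and Cxcl12 (0.81), Cxcl16 like Irf1 (0.80) and Kdr (0.76), and Cxcl10 like Ecm1 (0.74) and Ifit2 (0.73).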

How the data were processed

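Whole-liver RNA of 3 control and 3 knockout mice was analysed from the gene table the authors deposited, which gives FPKM per gene and library with gene names, coordinates and lengths. Per the submitters' processing notes, tools included featureCounts 1.5.0-p3 and HISAT2 2.0.5, and the build was GRCm38. Per the labels' protocols, poly-T beads selected the messenger RNA. Knockout columns carry the group's name, and the columns named NC, the only others, were assigned to the control livers of the same number. Multiplied by gene length, 100% of nonzero deposited FPKM values were whole numbers of reads in units of a per-library constant, within 0.1 read. These reads give the depth, and the steps followed median-ratio size factors. At this depth 3 reads in 1 kb correspond to 0.150 to 0.201 FPKM.

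The 12022 genes averaging 0.5 FPKM or more were compared on the log2(FPKM + 1) scale by limma 3.58.1 (eBayes with trend) in R 4.3.3, two-sided, adjusted by Benjamini-Hochberg and called at 0.05. The pseudocount of 1 understates changes of low genes. The fit was tested on simulated reads, where it recovered most large and few small changes and made some false calls. Those reads had the same spread setting for every gene and no liver set apart as knockout 2 is. They therefore do not show what the fit can detect in these livers. Nothing says that replicates were separate litters or batches, so p-values reflect only how these 6 livers vary. The members and lists were chosen with earlier results of these data known. Named genes are the 10 chemokines, their receptors (1 receptor gene is not reported here), Notch1, up to 4 tested genes per list other than marker lists, with the smallest p and at least 1 FPKM in the higher group, and for each chemokine the 2 list genes of most similar pattern; other genes named were chosen after their values were seen. For list names on several sequences, the row on an assembled chromosome was used. Across genes, the departures of same-numbered libraries from their group means correlated at 0.31, 0.16 and 0.101, and those of other pairs at -0.25 to 0.11. Control 3 with knockout 2, at 0.11, was thus above same-numbered pair 3. The labels give no pairing, and these correlations do not establish one. The numbers were treated as pairs only in an alternative fit with a replicate block. Coordinates are those of the deposited table and equal GENCODE M21 for all 10 chemokines. Sequence comparisons used Biopython 1.88.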

Additional observations from a re-analysis of the deposited data

How the results depend on the processing

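The tests were repeated under 18 alternatives: pseudocounts of 0.1 and 0.5, filters at a mean of 0.1 or 1 FPKM or none, quantile normalization, scaling to total reads, eBayes without trend or robust, array weights, a replicate block, limma voom on the recovered reads, and leaving out each liver. None of the 10 chemokines, the other chemokines or the receptors passed the threshold under any of them. The direction held in 164 of 179 refits of single chemokines, and the lowest adjusted p was 0.114 (Ccl6 without knockout 2). The 15 reversals were of Cxcl1, Cxcl12 and Ccl2, whose log2 fold changes lie near 0. With total-read scaling Cxcl1 read 0.0514 and Cxcl12 0.103, and with array weights Cxcl1 read 0.126, Cxcl12 0.0247 and Ccl2 -0.0828. Ccl2 read -0.0546 and -0.000161 with pseudocounts of 0.1 and 0.5, -0.0279 with quantile normalization and -0.00769 with voom. Leaving out single livers gave -0.26 to 0.30 for Cxcl1, -0.16 to 0.0902 for Cxcl12 and -0.22 to 0.17 for Ccl2. The replicate block left 0 of the 3 genes called over the whole table and changed no chemokine call. That count was 1 with a pseudocount of 0.1, 0 without a filter, 15 with voom, 4 (2 higher and 2 lower, against 1 and 2) with total-read scaling, and 0 to 70 when single livers were left out: 1 without control 1, 0 without control 2, 70 without control 3, 0 without knockout 1 and 30 without knockout 2. The cause was not tested. Cxcr3, Cxcr5, Ccr1 and Ccl2 rest on few reads, so counting error limits the precision of their values.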
